A study of Mus musculus with 4 samples.

Results

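The miR-181 family is a group of related miRNAs made from 6 short hairpins, whose 5p arms all share 1 seed, the bases that read a target. The members were taken by name: a sequence belonged to the family if the deposited table named it as mmu-miR-181a-5p, mmu-miR-181b-5p, mmu-miR-181c-5p, mmu-miR-181d-5p, mmu-miR-181a-1-3p, mmu-miR-181a-2-3p or mmu-miR-181c-3p, which gave 7 of the 1029 miRNA names and 878 of the 40045 sequences that carry a miRNA name. The rule used names and no measured value. The family was followed in RNA pulled down with the Argonaute (Ago) proteins, by means of a GW182 peptide that binds them, from brains of young (2-month-old) and old (18-month-old) BL6 mice, which the methods give as purchased male C57BL/6J animals, with no transgene and no treatment. Each of the 4 libraries, 2 per age, came from cortex and hippocampus combined. The labels do not say that each replicate is a separate mouse, so the p-values below measure only the spread between these libraries, which may be technical. The tissue is a mixture of cells, so fewer cells of a type and less of a miRNA per cell cannot be told apart, and nothing here tells cortex from hippocampus.

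A miRNA hairpin is cut by Drosha and then by Dicer into a duplex of a 5p arm and a 3p arm. Usually 1 arm stays in Ago as the guide of the RISC and pairs with mRNAs through its seed near the 5′ end, while the 3′ end lies in another pocket of Ago and is where enzymes trim bases or add A or U. miR-181 is abundant in brain, where it has been tied to neuronal and astrocytic stress responses and to synaptic receptors, and it is also known for setting the sensitivity of developing T cells to antigen.

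The mature sequences below show what the 7 members share and where they differ. They are those of RefSeq on GRCm38.p6, and capitals mark the seed (bases 2 to 8):
miR-181a-5p: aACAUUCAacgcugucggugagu
miR-181b-5p: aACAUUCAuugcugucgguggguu
miR-181c-5p: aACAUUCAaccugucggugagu
miR-181d-5p: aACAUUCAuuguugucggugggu
miR-181a-1-3p: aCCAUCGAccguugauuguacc
miR-181a-2-3p: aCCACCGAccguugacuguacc
miR-181c-3p: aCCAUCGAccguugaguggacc

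All 4 members of the 5p arm carried the same seed. miR-181c-5p equalled miR-181a-5p at 22 positions once 1 gap was allowed, and miR-181d-5p differed from miR-181b-5p by 1 mismatch. miR-181a-1-3p and miR-181c-3p shared a seed and differed at 2 positions, while miR-181a-2-3p had a seed of its own. The genes sit in 3 pairs (GRCm38.p6). Mir181a-1 and Mir181b-1 lie on the plus strand of chromosome 1, with miR-181a-5p at chr1:137966468-137966490, in an intron of the non-coding transcript Gm4258, and with the lincRNA Gm26936 on the opposite strand. Mir181b-1 there also overlaps an exon of the lincRNA A430106G13Rik. Mir181a-2 and Mir181b-2 lie on chromosome 2, with miR-181a-5p at chr2:38852741-38852763, opposite to an intron of Nr6a1. Mir181c and Mir181d lie on the minus strand of chromosome 8, with miR-181c-5p at chr8:84178924-84178945 and miR-181d-5p at chr8:84178759-84178781, in an intron of Nanos3 on the same strand. The mature miR-181a-5p and miR-181b-5p are each encoded by 2 hairpins, so reads of these sequences cannot be assigned to 1 gene. Reads of miR-181b-5p found in Mir181b-2 and not in Mir181b-1 had 44.5 to 80.4 CPM per library and those found in Mir181b-1 alone 0.11 to 1.14 CPM, but Mir181b-2 goes on with u after the mature sequence, where an added U would look the same.

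Levels are given in CPM (read counts after scaling), for which the authors scaled all libraries to the same total. The reads behind this scale, recovered from the steps between low values, ran from 9067007 to 11388999 per library, and 3 reads were worth 0.263 to 0.331 CPM. Between 96.6 and 96.7% of the reads carried a miRNA name. The mean read length over the whole table was 21.59 and 21.56 nucleotides at 2 months against 21.52 and 21.59 at 18 months. Of 456 miRNAs that averaged 10 CPM or more, 74 were called between the ages by limma at an unadjusted p under 0.05, or 16.2%, with 19 higher (4.17%) and 55 lower (12.1%) at 18 months, and 1 (0.219%) at an adjusted p under 0.05, where edgeR called 0 and DESeq2 19. The median miRNA moved by -0.22 on the log2 scale, and by -0.01 under median-of-ratios scaling, where the split became 39 higher and 25 lower. Few miRNAs that mark single cell types were called: 0 of 5 immune, 0 of 2 red blood cell and 0 of 3 oligodendrocyte miRNAs were called, as were 0 of 3 neuronal ones. Of the 2 endothelial miRNAs 1 was lower, and their sum was 12243 and 11472 CPM at 2 months against 5422 and 8990 CPM at 18 months. Of these, miR-126a-5p had 3000 and 2618 CPM at 2 months against 2865 and 2501 CPM at 18 months, and its ages overlapped. The fall of the sum thus lay mostly in the other arm, miR-126a-3p. The part of these cell types in the results below was not tested.

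No member of the family was called different in level between the ages. All 7 members passed the filter, and 0 of 7 were called, by limma, by edgeR or by DESeq2, at an unadjusted or an adjusted p, against 16.2% of all tested miRNAs by limma at an unadjusted p. With 7 members this count is near that background. Summed over the members, the family made up 2.33 and 2.21% of all reads at 2 months against 2.25 and 2.05% at 18 months, and the ages overlapped.

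miR-181a-5p was the main member and stood at rank 14 of all miRNA names. It reached 15961 and 15263 CPM at 2 months against 14978 and 13711 CPM at 18 months. Both old libraries were below both young ones, as they were for 41.4% of all tested miRNAs. Its log2 change was -0.12 (SE 0.20, 95% confidence interval -0.61 to 0.37, adjusted p = 0.765 by limma), and it turned positive under rescaling by the median of ratios (0.09), as it did under edgeR (0.10) and DESeq2 (0.09).

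miR-181b-5p, the second 5p guide of the same 2 clusters, had 4624 and 4267 CPM at 2 months against 5117 and 4261 CPM at 18 months. The ages overlapped, with 18-month replicate 1 the highest of the 4. Its log2 change was 0.07 (SE 0.21, adjusted p = 0.884 by limma), and it was -0.06 without that library.

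The members of the Mir181c and Mir181d cluster were rarer. miR-181c-5p had 1149 and 1289 CPM at 2 months against 1038 and 1170 CPM at 18 months, with overlapping ages and a log2 change of -0.14 (SE 0.21, adjusted p = 0.735 by limma), which was 0.07 under median-of-ratios scaling. miR-181d-5p had 852 and 783 CPM at 2 months against 710 and 659 CPM at 18 months. It was the other member with both old libraries below both young ones, and its log2 change of -0.26 (SE 0.20, adjusted p = 0.502 by limma) stayed close to the -0.22 of the median miRNA.

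On the 3p arm, miR-181a-1-3p had 401 and 273 CPM at 2 months against 363 and 430 CPM at 18 months. Its log2 change was 0.26 (SE 0.26, adjusted p = 0.592 by limma), and -0.02 without 2-month replicate 2, the lowest of the 4 libraries. miR-181c-3p had 296 and 216 CPM at 2 months against 261 and 247 CPM at 18 months, a log2 change of 0.00 (SE 0.24). miR-181a-2-3p was the rarest member, with 43.7 and 44.6 CPM at 2 months against 51.3 and 33.9 CPM at 18 months. The ages overlapped in all 3. In every library the order of levels was miR-181a-5p, b-5p, c-5p, d-5p, a-1-3p, c-3p and a-2-3p. The only neighbours in this order whose ranges over the 4 libraries overlapped were miR-181a-1-3p and miR-181c-3p. The 95% confidence intervals of the 7 log2 changes lay between -0.75 and 0.89.

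**Figure D1:**
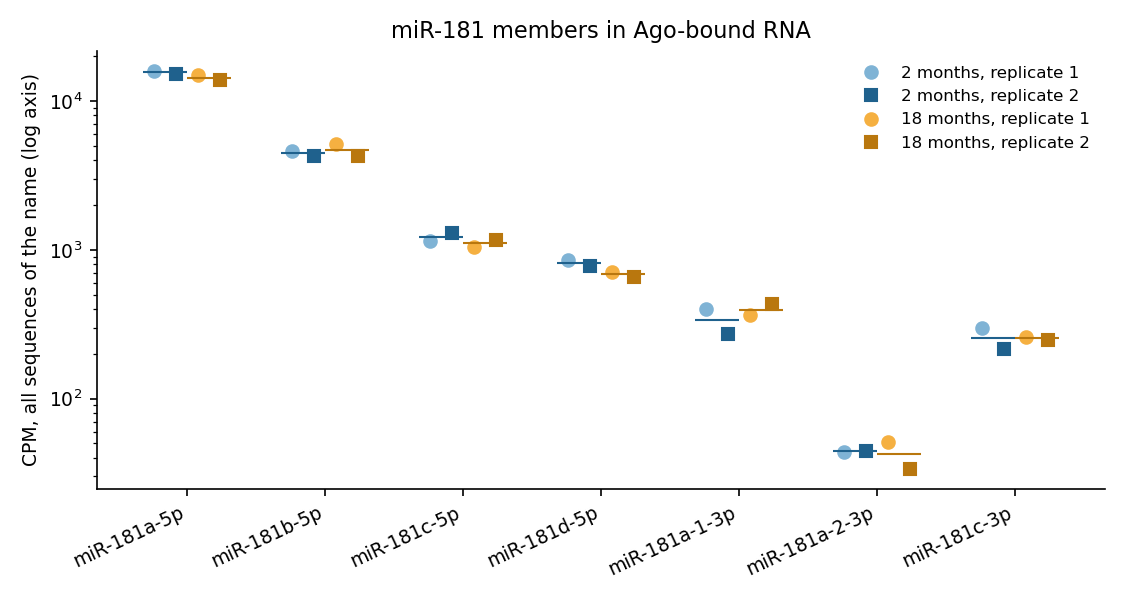
CPM of each miR-181 member, summed over all its sequences, in the 4 libraries (log axis). Circles and squares are replicates 1 and 2, blue marks 2 months and orange 18 months, and lines give the mean of the 2 libraries of an age. For miR-181a-5p and miR-181d-5p both old libraries lie below both young ones, and for the other 5 members the ages overlap.

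The mixture within the 5p arm moved by small amounts. miR-181a-5p gave 70.7 and 70.7% of the 5p reads at 2 months against 68.6 and 69.2% at 18 months. miR-181b-5p gave 20.5 and 19.8% against 23.4 and 21.5%, so both old libraries were higher, and miR-181d-5p gave 3.77 and 3.63% against 3.25 and 3.33%. miR-181c-5p overlapped, with 5.09 and 5.97% against 4.75 and 5.91%. With 2 libraries against 2 the two-sided exact permutation test cannot go below 0.333, which each of the 3 members without overlap reached. The shares of the 5p members add up to the whole, so they do not move independently of each other. No such shares were computed for other families as a background. These shares do not depend on how libraries are scaled.

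The hairpins differed in how much 3p arm was found in Ago, and here the ages overlapped throughout. For miR-181c, 3p reads were 20.5 and 14.4% of both arms at 2 months against 20.1 and 17.4% at 18 months. For miR-181a they were 2.71 and 2.04% against 2.69 and 3.27%, for miR-181d 0.468 and 0.335% against 0.701 and 0.466%, and for miR-181b 0.167 and 0.142% against 0.164 and 0.129%. Thus the lowest miR-181c library lay above the highest miR-181a library, and the lowest miR-181d library above the highest miR-181b one. The 3p arms of miR-181b-1, miR-181b-2 and miR-181d are not members and together had 8.60 to 13.4 CPM per library. The 3p arms also tell the 2 miR-181a hairpins apart. miR-181a-1-3p was 90.2 and 85.9% of the miR-181a 3p reads at 2 months against 87.6 and 92.7% at 18 months, so the Mir181a-1 hairpin gave most of the miR-181a 3p arm in Ago at both ages. This says nothing of the share of either hairpin in the 5p reads.

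The methods score a small RNA by the viability of cells given its 6mer seed (bases 2 to 7), in percent of the control, as a mean over mouse cell lines, where a low value marks a toxic seed. The common 5p seed ACAUUC scored 86.7. The 3p seeds scored lower, with 68.4 for CCAUCG of miR-181a-1-3p and miR-181c-3p and 63.3 for CCACCG of miR-181a-2-3p. Over all RNAs of the table, reads with the 5p seed summed to 22334 and 21421 CPM at 2 months against 21611 and 19603 CPM at 18 months, and the 5p members made up 98.8 to 98.9% of them. The log2 change of this seed was -0.09 (SE 0.22, adjusted p = 0.856 by limma), against a background of 15.3% of 952 seeds called at an unadjusted p under 0.05.

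The seed can also move within a member, when a read starts at another base. Reads with a shifted 5′ end were 1.82 and 1.66% of the 5p reads at 2 months against 1.70 and 1.69% at 18 months. Most of them lacked the first base, which makes CAUUCA the seed, with a score of 61.8, and this seed was 1.39% of all 5p reads. On the 3p arm the pooled shifted share was 4.33 and 4.26% at 2 months against 4.08 and 3.85% at 18 months, but no 3p member by itself was lower in both old libraries. miR-181a-1-3p had 1.55 and 1.74% against 1.49 and 2.10% and overlapped. miR-181a-2-3p was higher in both old libraries, with 4.37 and 4.72% against 5.17 and 7.82%. miR-181c-3p had 8.08 and 7.35% against 7.48 and 6.35% and overlapped. There the leading shifted reads started 1 base earlier, with the seed ACCAUC and a score of 38.9. The read-weighted score of a member hardly moved: it was 86.1 to 86.4 for each 5p member, 68.1 to 68.3 for miR-181a-1-3p, 66.2 to 66.6 for miR-181c-3p and 60.5 to 61.8 for miR-181a-2-3p over the 4 libraries. The most abundant shifted sequence of each 5p member is printed because it carries the other seed, and each lacks the first base of its mature sequence:
miR-181a-5p, shifted: acauucaacgcugucggugagu
miR-181b-5p, shifted: acauucauugcugucggugg
miR-181c-5p, shifted: acauucaaccugucggugaguuu
miR-181d-5p, shifted: acauucauuguugucggugg

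These stood at 81.4 and 52.1 CPM at 2 months against 47.5 and 46.3 CPM at 18 months for miR-181a-5p, and at 31.2 and 25.9 against 36.1 and 24.4 CPM for miR-181b-5p. The other two were below 6 CPM in every library. None of the 4 was called, with unadjusted p from 0.120 to 0.969 by limma.

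The largest differences between the ages in shares of reads, in percentage points, lay in the 3′ ends of 2 members. No single sequence of them passed the adjusted test. Forms of miR-181a-5p and miR-181c-5p around the mature 3′ end, which carry the result, are printed here from the deposited table, with capitals for bases past the mature 3′ end. They hold the 3 most abundant sequences of each member, and the forms of miR-181a-5p with 24 and 25 nucleotides were added after their values were seen:
miR-181a-5p, mature: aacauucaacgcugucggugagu
miR-181a-5p, 22 nucleotides: aacauucaacgcugucggugag
miR-181a-5p, 21 nucleotides: aacauucaacgcugucgguga
miR-181a-5p, 24 nucleotides: aacauucaacgcugucggugaguU
miR-181a-5p, 25 nucleotides: aacauucaacgcugucggugaguUU
miR-181c-5p, mature: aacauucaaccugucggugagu
miR-181c-5p, 23 nucleotides: aacauucaaccugucggugaguU
miR-181c-5p, 24 nucleotides: aacauucaaccugucggugaguUU

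All 3 hairpins of these members go on with uugg after the mature sequence, so a longer cut and the addition of U cannot be told apart in these reads. The mature 23-nucleotide sequence of miR-181a-5p, its most abundant form, had 6399 and 6761 CPM at 2 months against 4333 and 3250 CPM at 18 months. It was lower in both old libraries, with a log2 change of -0.81 (SE 0.26, unadjusted p = 0.0115, adjusted p = 0.367 by limma). Without 18-month replicate 2 the change was -0.60 (unadjusted p = 0.0867 by limma), and without 2-month replicate 2 it was -0.77 (unadjusted p = 0.0627 by limma). The form 1 base shorter was higher in both, with 2067 and 1612 CPM against 2680 and 2568 CPM, but did not pass (log2 change 0.52, SE 0.26, unadjusted p = 0.0757 by limma). The 21-nucleotide form had 3286 and 3020 CPM against 3493 and 3345 CPM. Forms of 20 and 19 nucleotides, which are not printed, were more abundant than those of 24 and 25 nucleotides and were not called. Hence there were 3.10 and 4.19 mature reads for each 22-nucleotide read at 2 months against 1.62 and 1.27 at 18 months.

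The mature 22-nucleotide sequence of miR-181c-5p had 419.6 and 628.8 CPM at 2 months against 256 and 187 CPM at 18 months. It was lower in both old libraries, with a log2 change of -1.22 (SE 0.32, unadjusted p = 0.00379, adjusted p = 0.281 by limma). The forms with 1 and 2 more U were not called. The first had 351 and 301 CPM against 378 and 420 CPM, and the second had 241 and 216 CPM against 258 and 405 CPM. So the ages did not overlap for either, and longer reads went from 1.42 and 0.826 for each mature read at 2 months to 2.49 and 4.43 at 18 months. In miR-181c-5p the reads were thus longer at 18 months and in miR-181a-5p most of the difference lay in shorter reads.

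**Figure D2:**
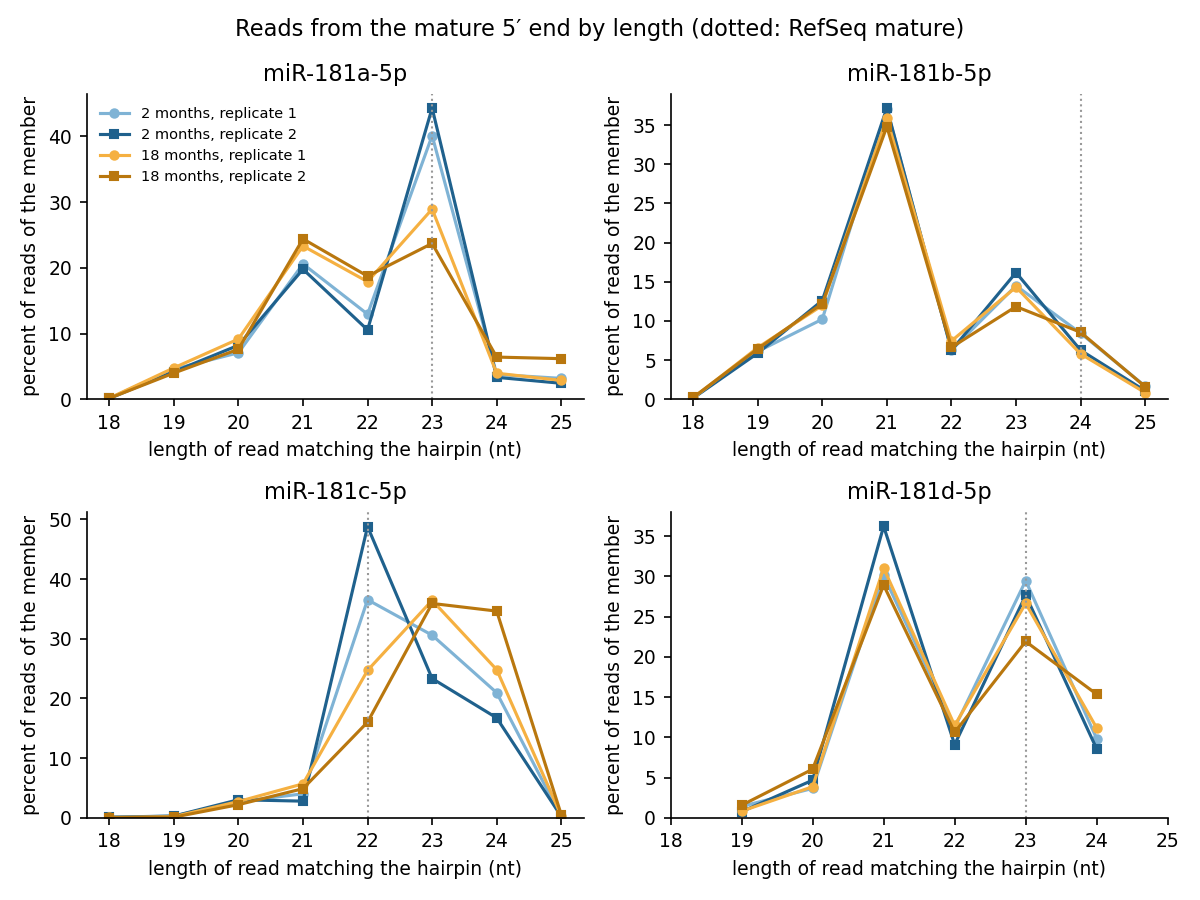
Reads that start at the mature 5′ end and match the hairpin, by length, in percent of all reads of each 5p member (4 libraries, colours and symbols by age and replicate, the dotted line marks the RefSeq mature length). For miR-181a-5p the 23-nucleotide peak is at 40.1 and 44.3% at 2 months and at 28.9 and 23.7% at 18 months, for miR-181c-5p the peak leaves 22 nucleotides, and for miR-181b-5p the 4 lines lie close together.

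As a share of the reads of the member, the mature sequence of miR-181a-5p was 40.1 and 44.3% at 2 months against 28.9 and 23.7% at 18 months, a difference of -15.9 percentage points (18 minus 2 months). That of miR-181c-5p was 36.5 and 48.8% against 24.7 and 16.03%, a difference of -22.3 points. These shares were computed after the values had been seen. They were set against 237 miRNAs with at least 100 CPM that have a RefSeq mature sequence and hairpin, among which 34.6% had a lower mature share in both old libraries, 9.28% had a higher one, and the median difference was -1.35 points. miR-181c-5p and miR-181a-5p had the lowest and second lowest difference of the 237, and miR-181a-1-3p was sixth, with 55.4 and 60.7% against 49.5 and 42.1%. Between them stood miR-338-3p (-15.2 points), miR-193a-3p (-14.4 points) and miR-17-5p (-14.2 points). In the other direction miR-376a-3p (23.8 points), miR-210-3p (18.2 points) and miR-219a-5p (16.3 points) moved by more than miR-181a-5p, and each was higher in both old libraries. miR-181d-5p had 29.4 and 27.6% against 26.6 and 21.9%, while miR-181b-5p, whose main form is shorter than its mature sequence, overlapped with 8.44 and 6.27% against 5.80 and 8.56%. miR-181c-3p overlapped too, with 34.7 and 42.3% against 41.1 and 32.5%. miR-181a-2-3p, too rare for the ranking, had 38.2 and 37.4% against 33.9 and 36.2%. So 5 of the 7 members had a lower mature share in both old libraries.

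**Figure D3:**
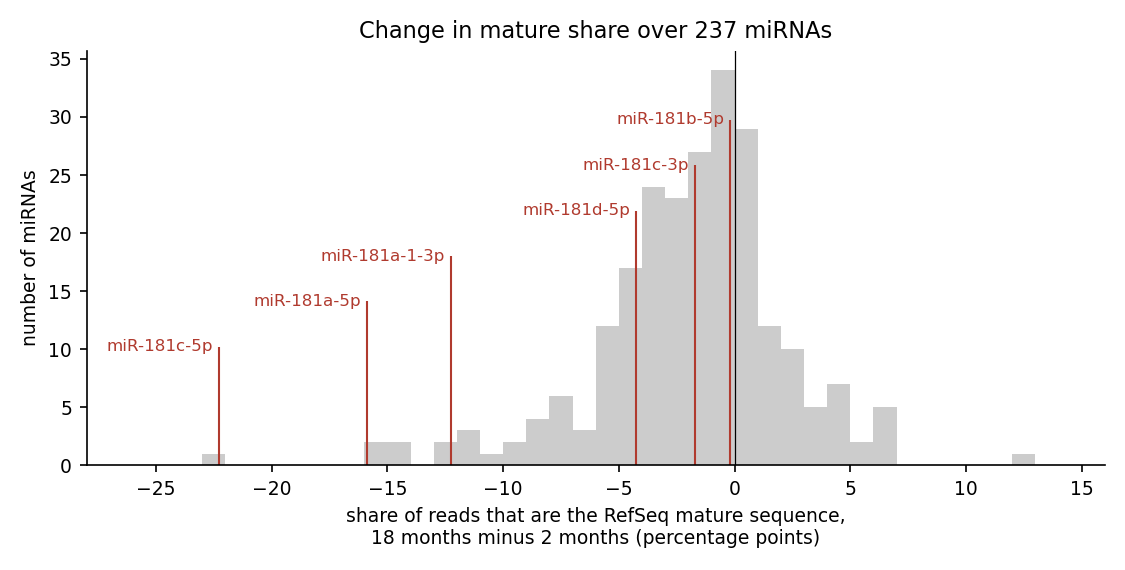
Difference between the ages in the share of reads that are the RefSeq mature sequence, in percentage points (18 months minus 2 months). Grey bars give the number of miRNAs per bin of 1 point, for those of the 237 miRNAs that fall within the axis. Red lines are the 6 ranked miR-181 members. The rises of miR-376a-3p (23.8 points), miR-210-3p (18.2 points) and miR-219a-5p (16.3 points) lie beyond the right edge and are not drawn. miR-181c-5p is the lowest of all, miR-181a-5p the second lowest and miR-181b-5p close to 0.

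The classes that held more reads in place of the mature form differed between the members. Reads that match the hairpin and are longer than the mature sequence were 51.7 and 40.3% of miR-181c-5p at 2 months against 61.6 and 71.1% at 18 months, the highest difference of the 237 miRNAs, of which 14.8% were higher in both old libraries. Its mean read length of 22.65 and 22.50 nucleotides at 2 months against 22.80 and 23.03 at 18 months also had the highest difference, while 5.06% of the miRNAs were longer in both old libraries and 40.5% were shorter. miR-181d-5p, its neighbour in the cluster, had 9.87 and 8.55% longer reads against 11.2 and 15.4%, and nearly all were of 1 form with a further U, which its hairpin also encodes:
miR-181d-5p, mature: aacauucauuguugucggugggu
miR-181d-5p, 24 nucleotides: aacauucauuguugucgguggguU

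This form had 83.7 and 67.0 CPM at 2 months against 79.1 and 101 CPM at 18 months and overlapped. For miR-181a-5p the longer reads were 6.98 and 5.79% against 6.85 and 12.6%, so that 1 library, 18-month replicate 2, stood apart from the other 3. Shorter reads were 45.3 and 42.9% of miR-181a-5p at 2 months against 55.3 and 54.9% at 18 months, and 35.7 and 27.1% against 38.7 and 48.0% of miR-181a-1-3p. In miR-181c-5p shorter reads were also higher in both old libraries, with 7.08 and 6.24% against 8.69 and 7.21%. More shorter reads in both old libraries were seen in 37.6% of the 237 miRNAs. In miR-181b-5p shorter reads prevailed at both ages, which overlapped, with 74.4 and 78.3% against 76.4 and 72.2%. The pattern was thus not shared by all miR-181 members. It differed between miR-181a-5p and miR-181b-5p, which are encoded by the same clusters. Their reads cannot be assigned to 1 cluster, so nothing is shown for the members of 1 cluster. A test of this difference between members was not made.

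Reads with A added at the 3′ end were a further class. They were 3.37 and 3.09% of miR-181a-5p at 2 months against 4.25 and 4.24% at 18 months, and 8.40 and 7.53% against 9.67 and 10.2% of miR-181b-5p. In miR-181d-5p they were 7.62 and 7.06% against 8.82 and 8.62%, and in miR-181a-1-3p 2.19 and 1.87% against 3.60 and 3.52%. With miR-181c-5p (1.74 and 1.90% against 2.07 and 2.31%) this made 5 of 7 members with more A tails in both old libraries, against 33.8% of the 237 miRNAs. U tails that the hairpin does not encode were higher in both old libraries in miR-181a-5p, b-5p and c-5p, where they stayed between 0.415 and 2.99% of reads, against 14.3% of the 237 miRNAs.

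Tested 1 by 1, 234 member sequences had a mean of at least 1 CPM. Of these 26 were called by limma at an unadjusted p under 0.05, or 11.1%, against 10.1% of all 14287 sequences, and 0 at an adjusted p under 0.05, against 6 of all sequences (0.042%), so the number of calls was near the background. It was 10 without 18-month replicate 2 and 11 without 2-month replicate 2. By direction 17 were higher and 9 lower, where 5.87 and 4.23% of all sequences were. By class, 9 of 42 sequences with an A tail were higher and 1 was lower, 2 of 7 mature sequences were lower, and 2 of the 26 shorter forms were called, 1 in each direction. The 5 called sequences with the largest differences in CPM were the mature forms of miR-181a-5p and miR-181c-5p and the 3 below, in which capitals mark bases past the mature end or not encoded by the hairpin:
miR-181a-5p with UA: aacauucaacgcugucggugaguUA
miR-181b-5p with AA: aacauucauugcugucgguAA
miR-181a-1-3p, 20 nucleotides: accaucgaccguugauugua

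The form of miR-181a-5p that ends in UA had 5.72 and 2.63 CPM at 2 months against 8.51 and 13.9 CPM at 18 months (log2 change 1.27, SE 0.41, adjusted p = 0.374 by limma). The form of miR-181b-5p with AA had 7.06 and 8.52 CPM against 15.7 and 12.7 CPM (log2 change 0.79, SE 0.33, adjusted p = 0.464 by limma). The short form of miR-181a-1-3p had 8.39 and 3.95 CPM against 11.5 and 13.8 CPM (log2 change 0.997, SE 0.386, adjusted p = 0.442 by limma). All 3 were higher in both old libraries, and all 3 are rare beside the leading forms of their members. The other 21 called sequences differed by fewer CPM.

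**Figure D4:**
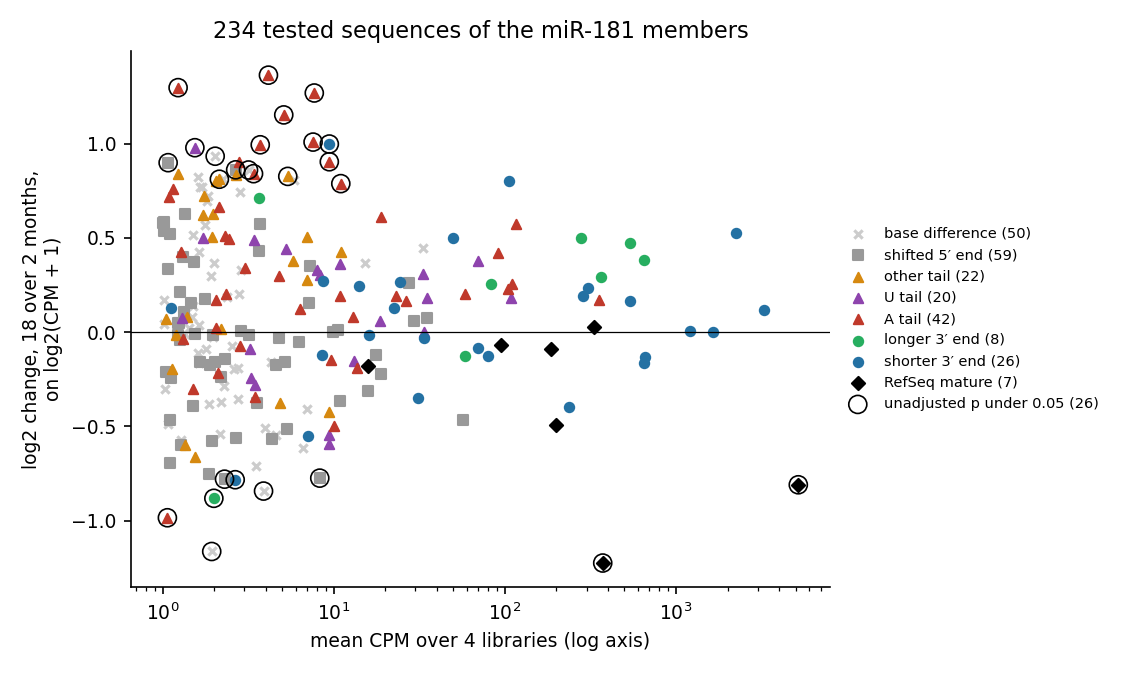
Log2 change between the ages (18 over 2 months, on log2(CPM + 1)) against mean CPM (log axis) for the 234 tested member sequences, coloured by class, with rings for the 26 at an unadjusted p under 0.05. The mature sequences of miR-181a-5p and miR-181c-5p are the only ringed points above 100 CPM, and most ringed red triangles, the A tails, lie above 0.

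The main forms of the other members did not pass the test. miR-181b-5p was led by a 21-nucleotide form with 1714 and 1587 CPM at 2 months against 1835 and 1484 CPM at 18 months, followed by forms of 23 and 20 nucleotides, and its log2 change was 0.00 (SE 0.26). Its mature sequence came after them, with 390 and 268 CPM against 297 and 365 CPM. miR-181d-5p was led by the form of the same length, with 257 and 284 CPM against 220 and 190 CPM (log2 change -0.40, SE 0.28, unadjusted p = 0.190 by limma). Its mature sequence had 251 and 217 CPM against 189 and 144.4 CPM, lower in both old libraries (log2 change -0.49, SE 0.29, unadjusted p = 0.127 by limma). Among the 3p arms, the mature sequence led in miR-181a-1-3p and miR-181c-3p, and was close to the form 1 base shorter in miR-181a-2-3p. That of miR-181a-1-3p had 222 and 166 CPM against 179 and 181.1 CPM, that of miR-181c-3p had 103 and 91.5 CPM against 107 and 80.1 CPM, and that of miR-181a-2-3p had 16.7 and 16.7 CPM against 17.4 and 12.2 CPM. The ages overlapped in each of the 3. The 21-nucleotide form of miR-181a-1-3p had 110 and 48.9 CPM against 101 and 165 CPM (log2 change 0.80, SE 0.42, unadjusted p = 0.0906 by limma) and overlapped as well.

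By its pattern over the 4 libraries, miR-181a-5p was closest to miR-361-3p, let-7f-5p, miR-376b-3p and miR-126a-5p among 273 miRNAs with at least 100 CPM, with root mean square distances of 0.031, 0.034, 0.057 and 0.060 on the centred log2 scale. Within the family miR-181d-5p was at 0.070, miR-181b-5p at 0.110, miR-181c-5p at 0.134, miR-181c-3p at 0.152 and miR-181a-1-3p at 0.288. This is a description over 4 libraries, in which all miRNAs share the scaling of a library. Of 10 miRNAs of neural tissue listed beside the family, 0 were called by limma, and their median log2 change was -0.25.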

How the data were processed

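Ago-bound small RNAs of 4 libraries (2 of 2-month-old and 2 of 18-month-old mice) were analysed. The authors cut adapters off the reads (Trim Galore, per the submitters' processing notes), dropped rare sequences and artificial ones, named the others by BLAST against mouse small RNA lists, and deposited CPM values for 85704 sequences of 15 to 33 nucleotides. They also deposited a score, the seed viability in percent of the control. Versions and the genome build are not given in the sources used here. The labels and the methods give different masses of tissue per sample. RNA was cut from a gel by size, which bounds the lengths seen.

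Whole reads were recovered from the CPM steps: 100% of nonzero values were whole within 0.02 reads. No sequence had fewer than 4 reads in all. CPM was summed by miRNA name and by 6mer seed. A limma 3.58.1 trend model with a single age term (R 4.3.3) took log2(CPM + 1) of miRNAs and seeds averaging 10 CPM or more and of sequences averaging 1 CPM or more, and its tests were two-sided. A fold change on this scale understates the change of low values. Calls used the study's limit, an unadjusted p under 0.05, and the Benjamini-Hochberg adjusted p over all rows of a level. Single values were compared by two-sided exact permutation tests. Reads of a member were classed against its RefSeq mature sequence and hairpin (that of Mir181c from the annotation) as mature, shorter, longer, tailed (up to 3 bases), shifted at the 5′ end or differing. Some paralogs are near-identical (miR-181a-5p and c-5p, miR-181b-5p and d-5p), so the authors' matching may have assigned some variants to the wrong member.

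The members, the lists and the named sequences were chosen with earlier results of these data known. The rule for names took the 7 members, their 3 most abundant sequences, the 5 called sequences with the largest difference in mean CPM, the leading shifted sequence of each 5p member, the other miR-181 arms and the 4 miRNAs most like miR-181a-5p. Alternatives were a replicate block, pseudocounts of 0.1 and 5, other filters, limma without trend, edgeR 4.0.16 and DESeq2 1.42.0 on the whole reads, median-of-ratios scaling, and each library left out. Scripts ran in Python 3.11.15 (scipy 1.17.1, matplotlib 3.10.9, pandas 2.3.3, numpy 2.4.6).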

Additional observations from a re-analysis of the deposited data

Results flagged for a closer look

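Reads that matched a miR-181 hairpin but carried no miRNA name in the table were outside all comparisons, and were above the floor of 3 reads in each library. They averaged 309.8 CPM over the 4 libraries, with 327 and 321 CPM at 2 months against 305 and 287 CPM at 18 months, in 621 sequences. Only 45 of these were found exactly in a hairpin (22.5 and 24.3 CPM against 18.6 and 20.8 CPM), and the rest differed from it by bases or tails. The 3p arms of miR-181b-1, miR-181b-2 and miR-181d, which were not taken as members, averaged 10.6 CPM, with 11.7 and 8.69 CPM at 2 months against 13.4 and 8.60 CPM at 18 months.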

How the results depend on the processing

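Across 277 recomputed values of 33 results, 248 kept their direction and their side of the threshold or stayed within the spread of the libraries. For shares and mean lengths, leaving a library out cannot move a difference beyond that spread, so these values were kept by construction. Some of them changed sign. The difference in the 3p share of miR-181c went from 1.31 to -1.76 points without 2-month replicate 2. That in the miR-181c-5p share of the 5p reads went from -0.20 to 0.38 points without 18-month replicate 1. The count of called members was 0 under every alternative. The 74 called miRNAs became 125 with no filter on low values, 43 with the stricter filter and 1 at an adjusted p, and 55 to 74 with a library left out. At an adjusted p DESeq2 called 19 miRNAs, and limma 4 without 2-month replicate 1. The 26 called member sequences became 52 with no filter, 2 with the stricter filter, 11 with DESeq2 and 0 at an adjusted p. With a library left out they were 10 to 21, with 11 without 2-month replicate 2 and 10 without 18-month replicate 2. edgeR called 25.

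The log2 change of the 5p seed was 0.052 with edgeR, 0.030 with DESeq2 and 0.028 after median-of-ratios scaling, and -0.16 to -0.02 with a library left out. In the same 3 settings the change was 0.10, 0.092 and 0.089 for miR-181a-5p, 0.078, 0.067 and 0.069 for miR-181c-5p, and 0.18, 0.17 and 0.13 for miR-181a-2-3p. With a library left out, the change ran from -0.19 to -0.06 for miR-181a-5p, -0.060 to 0.20 for miR-181b-5p, -0.23 to -0.06 for miR-181c-5p, -0.32 to -0.20 for miR-181d-5p, -0.021 to 0.53 for miR-181a-1-3p, -0.37 to 0.21 for miR-181a-2-3p and -0.22 to 0.23 for miR-181c-3p. From sequences found in 1 member hairpin alone, the change of miR-181c-3p was -0.066. None of these values passed an unadjusted p of 0.05.

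The mature sequence of miR-181a-5p changed by -1.02 to -0.60 on the log2 scale with a library left out. It no longer passed without 18-month replicate 2 (-0.60, unadjusted p = 0.0867) or without 2-month replicate 2 (-0.77, unadjusted p = 0.0627). That of miR-181c-5p passed in each of the 13 alternatives (-1.52 to -0.93). The difference in mature share was -18.5 to -13.3 points for miR-181a-5p and -28.4 to -16.2 for miR-181c-5p. These alternatives for the mature sequences and shares were chosen after seeing the data.

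Same-numbered libraries share only a number: their deviations correlated by 0.180 over 456 miRNAs. With a replicate block 79 miRNAs and 24 member sequences were called, and 0 members were called. In this balanced design a block cannot change the difference between the ages, so those values are not among the recomputed ones counted above. The share of bases outside the hairpin could not be computed on sequences contained in it. Depth limits the rarest classes, while the 2 libraries per age limit every comparison.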
